A study of Mus musculus with 8 samples.

Results

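The proteasome subunit genes are the genes whose deposited symbol begins with Psm, one letter from a to g and a digit. The rule found 50 genes among 20153 gene identifiers, each with 1 entry, and 49 of them reached 1 FPKM in at least 2 libraries and were tested. FPKM is a read level divided by transcript length and library size, which puts genes on a common scale. It does not correct for unequal amplification or for reads shared between genes, so comparisons of level between genes are approximate. By known role the 50 genes are 7 alpha and 7 constitutive beta subunits of the 20S core, 6 ATPases and 11 other subunits of the 19S cap, and 3 immunoproteasome catalytic subunits. There are also 2 tissue-restricted core subunits, 7 assembly chaperones, 4 activators and 1 inhibitor. The last 2 genes match by name only. Psmc3ip encodes a meiotic recombination partner and no proteasome subunit, and Psme2b is a near copy of Psme2 at another locus.

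RNA was measured in 8 mouse libraries, 2 in each of 4 groups. Primordial germ cells (PGCs) of the strain Oct4gfpXCD1 were taken from embryos at E9.5, at passage 0, with about 250 cells a library. Embryonic germ cells (EGCs) are pluripotent lines derived from such sorted PGCs of the same strain. Lines 4 and 7 were used at passage 6 with 500 cells each, and per the labels EGCs were grown in serum with LIF on feeder fibroblasts. For both in vitro groups the source was BVSC embryonic stem cells (passage 21), which carry fluorescent reporters of Prdm1 and Dppa3 and, for the PGCLC route, were kept in 2i with LIF on laminin: iPGCs made in hanging drops (1500 cells) and PGC-like cells (PGCLCs) made in aggregates after an epiblast-like step (300 to 500 cells). Oct4gfpXCD1 names an Oct4 reporter crossed to CD1 mice. The labels also describe a growth factor medium for cultured PGCs, but these PGC libraries are labelled passage 0, and whether they pooled embryos is not stated. EGCs and PGCs share their strain, and PGCLCs and iPGCs share strain and passage. Apart from these, strain, passage and culture differ with the group and cannot be told apart from it. The labels call the libraries biological replicates without saying which embryos or cultures they came from, so p-values measure the spread between these libraries.

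The proteasome is the main machine that breaks down ubiquitin-tagged proteins. Alpha rings gate the 20S core, beta rings carry the protease sites, and the 19S cap recognises, unfolds and feeds substrates. Interferon is known to exchange the constitutive catalytic subunits Psmb5, Psmb6 and Psmb7 for Psmb8, Psmb9 and Psmb10, and to induce the ring activator formed by the Psme1 and Psme2 products. The transcription factor encoded by Nfe2l1 is known to raise proteasome genes when the proteasome is inhibited.

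The promoters of 4 genes are shown because the values below turn on these genes: the exchange pair Psmb6 and Psmb9, and the activator pair Psme1 and Psme2, which sit 5912 bases apart and have very different levels. Each is RefSeq sequence of GRCm38.p6, 250 bases before and 50 bases after the annotated start, read along the gene's strand. Psmb6 is at chr11:70525107-70525406 on the plus strand, Psmb9 at chr17:34187281-34187580 on the minus strand, Psme1 at chr14:55578244-55578543 on the plus strand and Psme2 at chr14:55591052-55591351 on the minus strand. Capitals mark matches, on either strand, to any of the 3 motifs searched.
Psmb6: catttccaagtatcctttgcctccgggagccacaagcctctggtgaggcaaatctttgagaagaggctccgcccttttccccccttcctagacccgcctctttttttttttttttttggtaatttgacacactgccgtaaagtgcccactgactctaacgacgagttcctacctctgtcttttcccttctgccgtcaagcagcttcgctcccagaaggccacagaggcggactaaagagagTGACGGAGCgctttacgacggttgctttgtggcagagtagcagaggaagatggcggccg
Psmb9: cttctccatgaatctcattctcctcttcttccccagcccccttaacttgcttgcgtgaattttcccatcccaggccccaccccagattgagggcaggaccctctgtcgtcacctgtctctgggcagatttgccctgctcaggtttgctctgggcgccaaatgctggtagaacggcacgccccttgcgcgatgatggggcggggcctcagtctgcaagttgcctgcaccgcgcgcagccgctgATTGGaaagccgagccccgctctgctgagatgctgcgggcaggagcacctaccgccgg
Psme1: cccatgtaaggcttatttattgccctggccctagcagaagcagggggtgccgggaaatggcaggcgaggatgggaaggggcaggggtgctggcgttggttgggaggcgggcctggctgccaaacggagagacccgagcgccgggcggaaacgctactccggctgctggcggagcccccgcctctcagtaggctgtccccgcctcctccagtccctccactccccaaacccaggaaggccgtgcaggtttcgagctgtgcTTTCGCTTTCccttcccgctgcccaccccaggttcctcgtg
Psme2: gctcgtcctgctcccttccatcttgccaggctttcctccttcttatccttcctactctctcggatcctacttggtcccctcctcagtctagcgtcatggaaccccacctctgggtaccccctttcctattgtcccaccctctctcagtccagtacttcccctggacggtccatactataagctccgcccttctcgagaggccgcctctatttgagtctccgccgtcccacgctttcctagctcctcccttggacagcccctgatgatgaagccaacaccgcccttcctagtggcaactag

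The motifs were TGACNNNGC, the core of the element that the Nfe2l1 product binds, GAAA followed after 2 bases by a second GAAA, the core of interferon response elements, and CCAAT. Promoters were found for 42 of the 50 genes, with a single promoter kept for each, the nearest to the gene's start. The set of all promoters was not reduced in this way or limited to tested genes. The shares below are therefore from unlike sets. TGACNNNGC was in 6 of these 42 (14.3%) and in 12.4% of all 32851 promoters in the table, and in Psmb6 it lay at -9 to -1, counting the start as 0. The interferon core was in 5 of 42 (11.9%) and in 3.44% of all promoters, and in Psme1 it lay just after the start, at 9 to 18. CCAAT was in 15 of 42 (35.7%) and in 37.4% of all promoters, with the match of Psmb9 at -8 to -4. These are matches of letters, and binding was not measured.

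Approximate depths, read from the lowest FPKM times length of single-transcript genes, were 14.1 to 18.4 M reads in 6 libraries, 8.03 M in PGCLC library 1 and 2.95 M in iPGC library 1. Germ cell markers checked the labels: the summed FPKM of 7 such genes was 417 to 885 in the 6 PGC, iPGC and PGCLC libraries and 61.3 and 125 in EGCs. Dppa3 was most of the sum in every library. Prdm1, Prdm14, Tfap2c and Kit were also lower in both EGC libraries than in the 6 others, while Nanos3 and Dnd1 overlapped. The sum of 6 pluripotency markers did not set EGCs apart from PGCLCs: it was 370.0 and 319 FPKM in EGCs, 94.5 and 162 in PGCs, 258 and 265.5 in iPGCs, and 574 and 263 in PGCLCs. Only PGCLC library 1, with Pou5f1 at 327 FPKM, was above the EGC sums. Tdgf1 gave 189 and 145 of the EGC sums, and Zfp42 was at 17.0 and 25.1 in EGCs and at most 9.23 elsewhere. Nanog, Esrrb and Sox2 were lower in both EGC libraries than in all 4 iPGC and PGCLC libraries. PGC library 1 stood apart, with 13 myeloid and blood markers summing to 148 FPKM (Lyz2 at 62.1, Ptprc at 3.09) and 4 yolk sac endoderm markers to 137. In PGC library 2 the sums were 5.81 and 0, and in the other 6 libraries at most 38.6 and 2.83. Not all myeloid and blood markers were raised in PGC library 1, where Tyrobp, Coro1a, C1qa, C1qb and C1qc were at 0. Laptm5 was at 1.87 FPKM there, against 33.4 and 9.597 in EGCs, 3.06 and 8.87 in iPGCs, and 21.7 in PGCLC library 1. It was lower only in PGC library 2 (0) and PGCLC library 2 (0.149). Endothelial markers summed to 15.4 to 101 FPKM, nearly all of it Pecam1, which germ cells also express, and Tek. Fibroblast markers were at 12.7 in PGC library 1 and at most 3.56 elsewhere. In the EGCs Col1a1 was at 0.0142 and 0, and Thy1 at 0.963 and 3.56. Thy1 was also at 2.89 and 0.859 in iPGCs, and at 0 in PGCs and PGCLCs.

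All 31 constitutive 20S and 19S genes were above 1 FPKM in all 8 libraries, and 29 were above 10. Their median level was 33.1 and 42.0 FPKM in PGCs, 30.2 and 34.1 in EGC lines 4 and 7, 66.9 and 55.3 in iPGCs, and 73.9 and 55.8 in PGCLCs. The iPGC and PGCLC libraries thus held the higher medians and the PGC and EGC libraries the lower ones, without overlap. The median over all 11083 tested genes had the same split. It was 4.12 and 4.49 FPKM in PGCs, 4.46 and 4.90 in EGCs, 6.46 and 6.48 in iPGCs, and 7.12 and 6.30 in PGCLCs. Among the PGC and EGC libraries the order differed, with PGC library 1 lowest over all genes and EGC line 4 lowest for the 31. The 31 genes took 1.10% and 1.02% of all FPKM in PGCs, 0.885% and 0.823% in EGCs, 1.19% and 1.07% in iPGCs, and 1.09% and 0.934% in PGCLCs. The EGC shares were the lowest of the 8. In these bulk samples fewer cells of a type and less RNA per cell cannot be told apart.

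**Figure D1:**
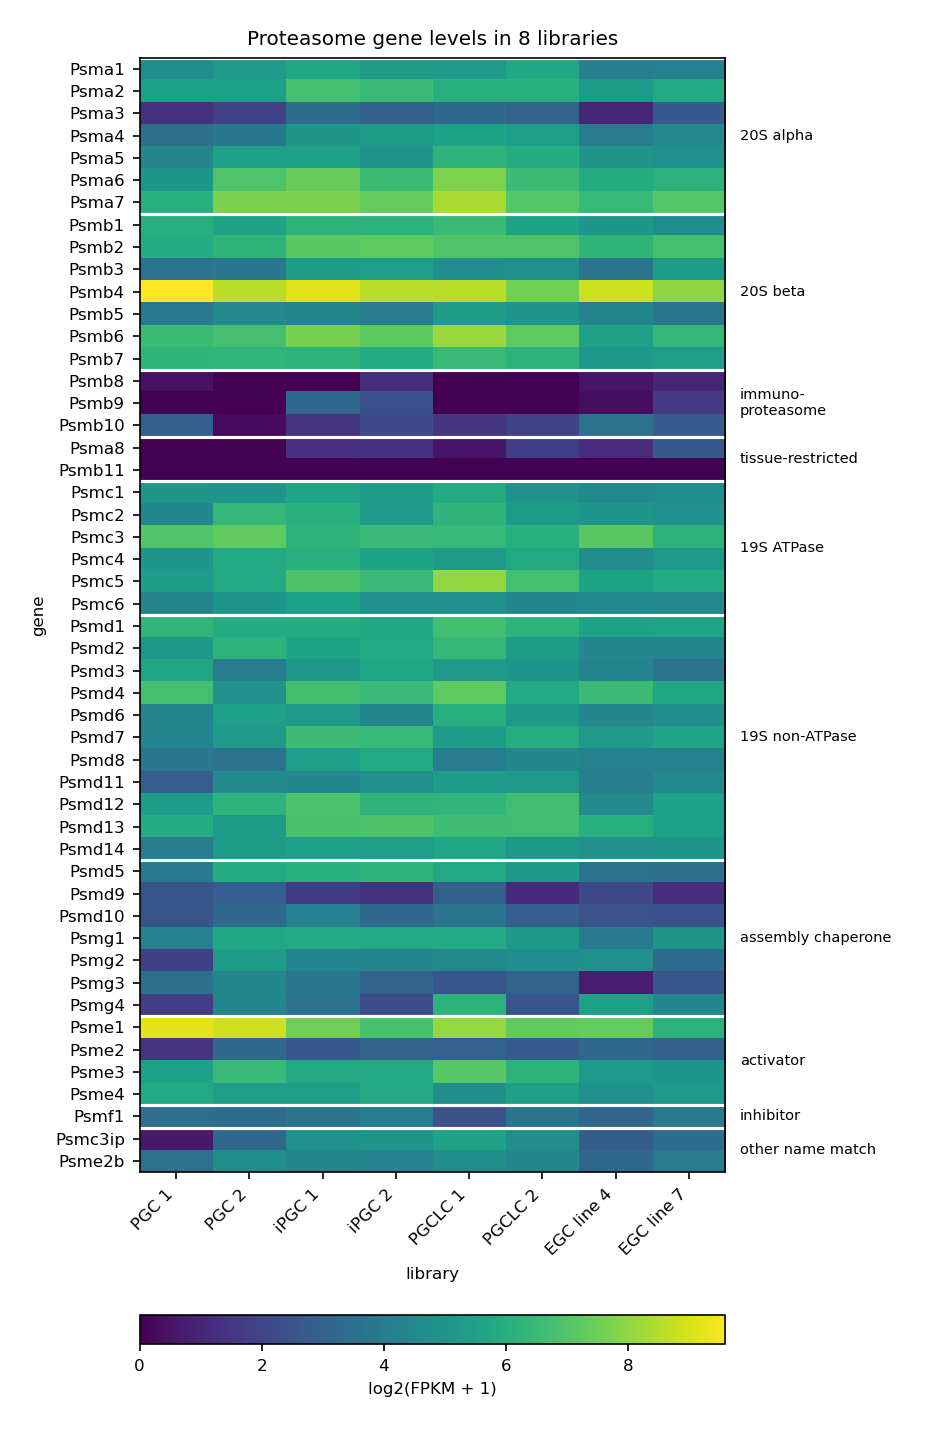
Level of each of the 50 genes (rows, grouped by role) in each library (columns), as log2(FPKM + 1) by colour. Psmb4 is the brightest constitutive row and Psma3 the darkest in all 8 libraries, and the immunoproteasome and tissue-restricted rows are dark throughout.

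Although the products of the core genes enter the core in equal numbers, the subunit genes differed widely in level within a library. Psmb4, a structural beta subunit, was highest in every library, at 771 and 386 FPKM in PGCs, 467 and 245 in EGCs, 551 and 386 in iPGCs, and 382 and 187 in PGCLCs. Psma3, an alpha subunit, was lowest in every library, at 1.64 and 2.72, 1.02 and 5.52, 9.49 and 6.77, and 8.75 and 7.21 FPKM in the same order. The ratio of highest to lowest ran from 25.9 in PGCLC library 2 to 469.5 in PGC library 1. FPKM of Psma3 is uncertain, since 21.99% of the 50-base windows of its transcripts, the length of a read, occur unchanged in other genes, mostly the processed pseudogene Gm13835. Psmb4 shared no window with another gene. Of the 31 constitutive genes, 8 shared at least 5% of windows with another locus, among them Psmb3 (55.8%), Psma5 (54.5%) and Psmb5 (47.4%).

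Among the alpha subunits Psma7 had the highest mean level, at 64.2 and 208 FPKM in PGCs, 84.5 and 132 in EGCs, 207 and 160 in iPGCs, and 321 and 133 in PGCLCs. Its PGC libraries differed widely and overlapped every other group. Psma4 was more even within groups, at 10.7 and 13.8 in PGCs, 15.9 and 21.7 in EGCs, 32.7 and 36.8 in iPGCs, and 46.8 and 39.6 in PGCLCs. Both in vitro germ cell groups lay above PGCs and EGCs for this gene without overlap. Its level is uncertain, with 19.2% of its windows also in the processed pseudogene Gm6542. The 7 alpha genes each had a higher mean in iPGCs and in PGCLCs than in PGCs, on the log2(FPKM + 1) scale. So had 66.7% and 66.4% of all tested genes. Each alpha gene also had a lower mean in EGCs than in iPGCs and PGCLCs, as had 69.5% and 66.2% of all tested genes.

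In the 19S cap the ATPase gene Psmc3 had the highest mean level, and it ran the other way from most members. It was at 125 and 151 FPKM in PGCs, 139 and 70.8 in EGCs, 73.8 and 88.4 in iPGCs, and 85.2 and 67.6 in PGCLCs. It was the 1 constitutive gene with both PGC libraries above all 4 iPGC and PGCLC libraries (7.84% of all genes), and 5.93% of its windows lie in the overlapping gene Slc39a13. Psmc5 varied most between groups among the ATPases, at 37.3 and 54.8 in PGCs, 46.5 and 57.5 in EGCs, 119.9 and 89.3 in iPGCs, and 259 and 104 in PGCLCs. Psmc6 varied least, with 19.01 to 41.3 FPKM over all libraries. Among the non-ATPases, Psmd4, a ubiquitin receptor, had the highest mean (83.7 FPKM) and Psmd11 the lowest (23.7 FPKM). Psmd8, a lid subunit, varied most, at 13.1 and 10.9 in PGCs, 17.4 and 17.3 in EGCs, 39.97 and 56.3 in iPGCs, and 15.8 and 21.2 in PGCLCs. Its iPGC libraries lay above the other 6. Psmd7, another lid subunit, was at 19.2 and 35.4, 35.4 and 47.9, 94.97 and 85.4, and 37.5 and 61.6 FPKM in the same order, again highest in both iPGC libraries.

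The 3 immunoproteasome catalytic genes were below their constitutive counterparts in all 8 libraries, with the narrowest gap in EGC line 4, where Psmb10 made up 25.01% of its pair with Psmb7. Psmb5, the chymotrypsin-like site, was at 15.1 and 21.9 FPKM in PGCs, 18.98 and 12.4 in EGCs, 20.3 and 15.1 in iPGCs, and 38.2 and 31.7 in PGCLCs. Its replacement Psmb8 was at 0.386 and 0 in PGCs, 0.445 and 1.06 in EGCs, 0 and 1.37 in iPGCs, and 0 and 0 in PGCLCs. No library held more than 1.37 FPKM of Psmb8.

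Psmb6, the caspase-like site, was at 91.7 and 105 FPKM in PGCs, 44.4 and 82.2 in EGCs, 195 and 145 in iPGCs, and 282 and 146 in PGCLCs. Both EGC libraries were below the 6 others, as in 7 of the 31 constitutive genes and 9.11% of all tested genes. Psmb9, its replacement (chromosome 17, 34181987 to 34187764, GRCm38, minus strand), was at 8.32 and 4.01 in iPGCs and at 0.284 and 2.01 in EGCs. It was listed at 0 in both PGC and both PGCLC libraries, and an exact 0 in such a file may be a failed estimate. Of its windows 9.71% lie in the overlapping gene Tap1, a peptide transporter, which was at 0.852 and 1.315 FPKM in iPGCs and 3.47 and 1.60 in EGCs, at most 0.0318 in PGCLCs and 0 in PGCs. Reads of these 2 genes may not be told apart, since the sources used here do not say whether strand was used.

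Psmb7, the trypsin-like site, was at 76.1 and 78.1 FPKM in PGCs, 33.3 and 40.2 in EGCs, 75.3 and 58.6 in iPGCs, and 88.6 and 72.9 in PGCLCs. Again both EGC libraries were the lowest. Of its windows 28.1% lie in the overlapping gene Nek6. Its replacement Psmb10 was at 6.79 and 0.219 in PGCs, 11.1 and 5.97 in EGCs, 1.74 and 3.73 in iPGCs, and 1.85 and 2.79 in PGCLCs. Both EGC libraries lay above the 4 iPGC and PGCLC libraries, the 1 member of which this held, against 5.42% of all genes. The higher PGC value came from library 1, which also held B2m, the light chain of class I antigen-presenting molecules, at 83.6 FPKM against 0.443 in library 2, beside its myeloid markers; their part in the Psmb10 value was not tested.

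The share of Psmb8, Psmb9 and Psmb10 in the summed FPKM of the 6 catalytic genes put these values together. It was 3.78% and 0.107% in PGCs, 10.9% and 6.29% in EGCs, 3.345% and 3.99% in iPGCs, and 0.451% and 1.10% in PGCLCs. The EGC libraries had the highest shares and held the lowest sums of Psmb5, Psmb6 and Psmb7, 96.6 and 135 FPKM against 183 to 409 elsewhere. The immunoproteasome sums themselves overlapped between EGCs (11.8 and 9.05 FPKM, mostly Psmb10) and iPGCs (10.05 and 9.11 FPKM). In iPGC library 1 most of the sum was Psmb9. The group means were 8.60% ± 3.27 in EGCs, 3.67% ± 0.457 in iPGCs, 1.94% ± 2.59 in PGCs and 0.775% ± 0.458 in PGCLCs (SD, n = 2 each), with PGCs overlapping both neighbours.

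**Figure D2:**
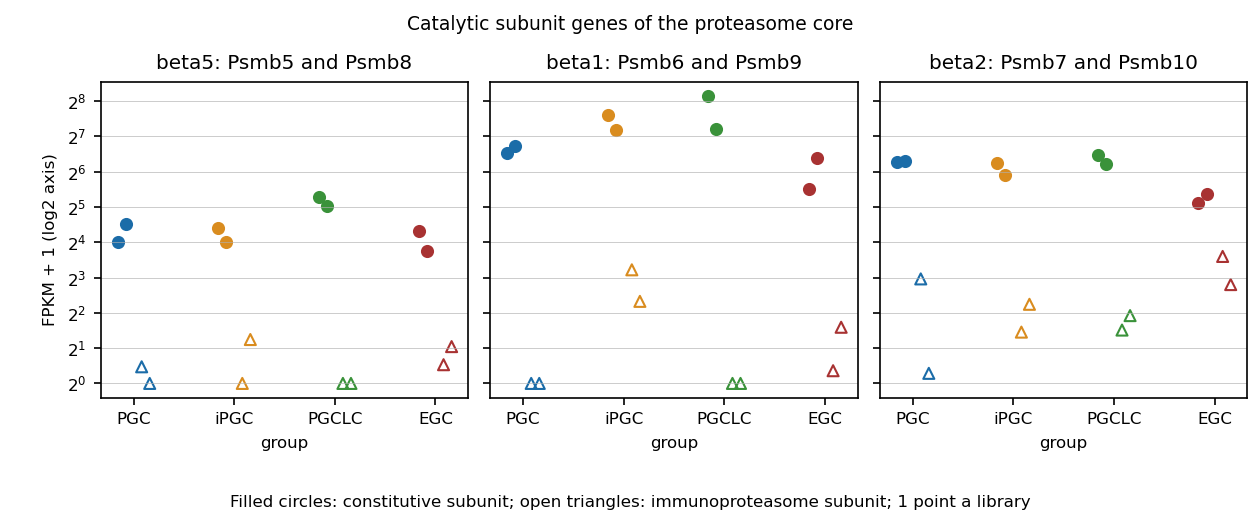
FPKM + 1 on a log2 axis for each constitutive catalytic gene (filled circles) and its immunoproteasome counterpart (open triangles), 1 point a library, by group. The triangles lie below the circles in every group, and Psmb9 is off the floor only in iPGCs (8.32 and 4.01 FPKM) and EGCs (0.284 and 2.01 FPKM).

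Psme1 was the most abundant activator gene in every library. It was at 583 and 476 FPKM in PGCs, 155 and 71.6 in EGCs, 183 and 110 in iPGCs, and 268 and 152 in PGCLCs. Both PGC libraries lay above all 6 others, the 1 tested member of which this held, against 6.05% of all tested genes. Its means were 529 ± 75.7 FPKM in PGCs, 113 ± 58.8 in EGCs, 147 ± 51.3 in iPGCs and 209.9 ± 82.2 in PGCLCs (SD, n = 2 each). The log2 difference from PGCs was -2.31 ± 0.49 in EGCs (± SE, limma adjusted p = 0.0751), -1.88 ± 0.49 in iPGCs (adjusted p = 0.109) and -1.38 ± 0.49 in PGCLCs (adjusted p = 0.176), so none passed the threshold of 0.05. These comparisons share the PGC libraries. Of the Psme1 windows 11.3% occur in other loci, mostly pseudogenes.

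**Figure D3:**
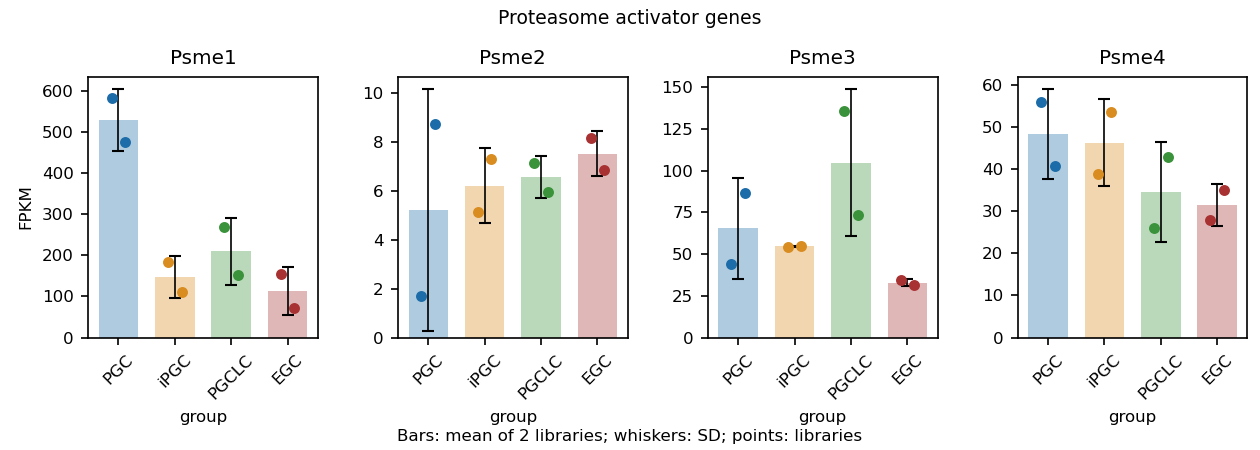
FPKM of the 4 activator genes by group: bars are means of 2 libraries, whiskers the SD and points the libraries, each panel with its own axis from 0. Psme1 reaches 583 and 476 FPKM in PGCs and at most 268 elsewhere, while Psme2 stays under 10 in all 8 libraries.

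Psme2, whose product forms a ring with that of Psme1, was at 1.71 and 8.73 FPKM in PGCs, 8.18 and 6.87 in EGCs, 5.13 and 7.32 in iPGCs, and 7.16 and 5.96 in PGCLCs. Psme1 was thus 10.4 to 340.0 times Psme2. FPKM of Psme2 is uncertain because of Psme2b (chromosome 11, 48945354 to 48946190, GRCm38), a gene on another chromosome. Their coding sequences of 717 bases differ at 5 positions (99.3% identical), and 10 of 14 consecutive 50-base windows are the same in both. Bases 1 to 50 of the coding sequences show how a read cannot be assigned, and bases 501 to 550, with capitals at the 2 differences, show the window with most differences, both from GENCODE M21 transcripts.
Psme2, bases 1 to 50: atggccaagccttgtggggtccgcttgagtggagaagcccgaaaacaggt
Psme2b, bases 1 to 50: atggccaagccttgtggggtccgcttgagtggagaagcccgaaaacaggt
Psme2, bases 501 to 550: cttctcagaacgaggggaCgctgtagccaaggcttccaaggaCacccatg
Psme2b, bases 501 to 550: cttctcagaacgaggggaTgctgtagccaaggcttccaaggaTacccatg

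Psme2b was at 10.8 and 26.6 FPKM in PGCs, 8.45 and 15.6 in EGCs, 19.5 and 18.1 in iPGCs, and 25.9 and 20.5 in PGCLCs. With both entries added, Psme1 was still 3.19 to 46.6 times the sum, and the ratio was highest in the 2 PGC libraries (46.6 and 13.5, against at most 9.31). Psme3, a nuclear activator, was at 44.0 and 86.6 FPKM in PGCs, 34.2 and 31.3 in EGCs, 54.5 and 54.9 in iPGCs, and 136 and 73.5 in PGCLCs. Here both EGC libraries were below the 6 others. Psme4, an activator known from spermatogenesis and DNA repair, was at 56.0 and 40.8, 28.02 and 35.01, 39.0 and 53.7, and 26.2 and 43.0 FPKM in the same order. Both EGC libraries lay below both PGC and both iPGC libraries, and the other pairs of groups overlapped. The inhibitor gene Psmf1 was at 4.24 to 15.6 FPKM over all libraries and separated only iPGCs (12.1 and 15.6) from PGCs (9.75 and 9.56).

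The assembly chaperones, which help to place the subunits, included members with wide spreads between libraries. Psmd5, a chaperone of the 19S base, was at 13.9 and 58.2 FPKM in PGCs, 10.9 and 10.5 in EGCs, 65.2 and 73.7 in iPGCs, and 53.9 and 33.4 in PGCLCs. The EGC libraries were again the lowest. Psmg3, a chaperone of the alpha ring, was at 10.7 and 20.4 in PGCs, 0.670 and 4.77 in EGCs, 13.8 and 7.52 in iPGCs, and 4.93 and 7.46 in PGCLCs, and 21.8% of its windows lie in the overlapping gene Gm26938. Its partner Psmg4 spread widely within groups, at 2.34 and 19.95 in PGCs, 42.9 and 21.5 in EGCs, 11.5 and 3.78 in iPGCs, and 73.3 and 4.92 in PGCLCs. Psmg2 was at 2.54 and 38.8 in PGCs and between 9.22 and 26.8 in the other 6 libraries. Psmg1 had the highest mean of the chaperones (40.3 FPKM), and Psmd9 the lowest (3.35 FPKM), with Psmd10, known as gankyrin, at 4.36 to 18.2 FPKM.

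Of the tissue-restricted core genes, Psmb11, the catalytic subunit of the thymus proteasome, was listed at 0 in all 8 libraries and was the 1 member that could not be tested. Psma8, the counterpart of Psma7 in meiotic male germ cells, was listed at 0 in both PGC libraries. It was at 1.35 and 5.12 FPKM in EGCs, 1.43 and 1.64 in iPGCs, and 0.485 and 2.31 in PGCLCs, against 64.2 to 321 for Psma7. Psmb8 and Psmb9 were the only other members listed at 0 in any library. Psmc3ip was at 0.589 and 8.44 FPKM in PGCs, 6.15 and 9.42 in EGCs, 26.9 and 32.4 in iPGCs, and 46.1 and 25.5 in PGCLCs. Its 4 iPGC and PGCLC values lay above the PGC and EGC values, and 27.05% of its windows lie in the overlapping gene Mlx.

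No member passed the threshold in any comparison. In limma with adjustment over all 11083 genes, 0 of 49 members were called in each of the 6 pairwise comparisons, and 0 of 49 by the F test for any difference among the 4 groups, against 0.505% of all genes by that F test. Unadjusted, 51 of 294 pairwise tests of members (17.3%) had p below 0.05, against 14.2% of all such tests, a share near the background. The smallest adjusted p in the F test was 0.123, for Psmb9. The smallest log2 difference that passed was 2.44 in EGCs against PGCs, 2.52 in iPGCs against PGCs and 2.445 in PGCLCs against PGCs. The largest member differences there, by size, were 2.35 (Psmg3, lower), 2.98 and 3.19 (Psmc3ip, higher in both), so in the last 2 comparisons a member was past the smallest size that passed and still missed the threshold. The share of all genes called was 0.74% in EGCs against PGCs, 0.794% in iPGCs against PGCs, 1.06% in PGCLCs against PGCs, 0.018% in PGCLCs against iPGCs, 0.117% in EGCs against iPGCs and 0.0993% in EGCs against PGCLCs.

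The comparisons of EGCs with each in vitro germ cell group gave the most one-sided differences. Of the 31 constitutive genes, 30 had a lower mean in EGCs than in iPGCs, against 69.5% of all tested genes, and 29 a lower mean than in PGCLCs, against 66.2%. None was separated upwards from iPGCs or from PGCLCs, against 10.8% and 11.8% of all genes. In 25 of 31 (80.6%) both EGC libraries were below both iPGC libraries, against 39.5% of all genes, and in 24 of 31 (77.4%) below both PGCLC libraries, against 34.2%. These comparisons share the EGC libraries. The median log2 difference of the 31 was -0.85 from iPGCs and -0.92 from PGCLCs, beside -0.40 and -0.38 over all tested genes. Both EGC libraries lay below all 4 iPGC and PGCLC libraries for 21 of 31 (67.7%), against 24.4% of all genes. These 21 included all 7 alpha genes. Of the 31, 10 had an unadjusted p below 0.05 with a lower mean in EGCs in each comparison, against 8.64% of all genes for iPGCs and 11.1% for PGCLCs.

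By size, the members with separated libraries were led in EGCs against iPGCs by Psmd5, with a log2 difference of -2.59 ± 0.65 (limma adjusted p = 0.293), Psmg3 (-1.85 ± 0.74) and Psmc3ip (-1.82 ± 0.81) below, and by Psmg4 (2.02 ± 1.25) and Psmb10 (1.35 ± 0.90) above. In EGCs against PGCLCs they were Psmc3ip (-2.03 ± 0.81), Psmd5 (-1.90 ± 0.65) and Psmb6 (-1.73 ± 0.47, limma adjusted p = 0.203) below. Above were Psmb10 (1.48 ± 0.90), Psmb9 and Psmb8, of which the last 2 were listed at 0 in PGCLCs.

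Between EGCs and PGCs, the cells such lines are derived from, the constitutive genes had both signs. The 31 genes had 13 positive and 18 negative differences, against 53.1% and 46.9% of all genes, with a median of -0.16 beside 0.07. Less the median of all genes this is -0.22, and 0.01 after quantile normalization. Both EGC libraries were above both PGC libraries in 3 of 31, against 24.1% of all genes, and below them in 7 of 31 (22.6%), against 20%. The 7 alpha genes had a median of 0.04 and the 7 beta genes one of -0.69. Besides Psme1, the members with separated libraries and the largest differences were Psmg3 (-2.35 ± 0.74, limma adjusted p = 0.168) and Psmd5 (-1.35 ± 0.65) below, and Psmg4 (1.91 ± 1.25) above, with Psma8 (adjusted p = 0.202) and Psmb9 (adjusted p = 0.461), both listed at 0 in PGCs.

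**Figure D4:**
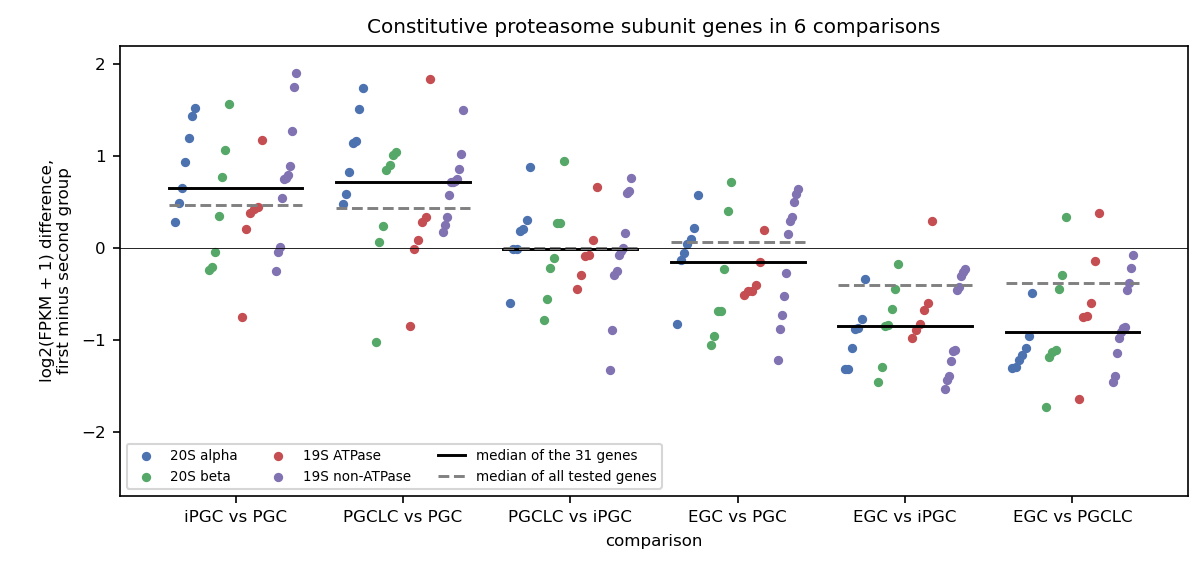
Difference in log2(FPKM + 1) between group means for each of the 31 constitutive genes, coloured by class, in the 6 comparisons, with the median of the 31 (solid line) and of all tested genes (dashed line). In EGCs against iPGCs and PGCLCs nearly all points are below 0, with medians of -0.85 and -0.92 beside -0.40 and -0.38.

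Against PGCs, both in vitro groups had higher means for most constitutive genes, as had most genes of the table. In iPGCs 25 of 31 differences were above 0, against 66.7% of all genes, with a median of 0.65 beside 0.47, and 8 of 31 had an unadjusted p below 0.05, against 15.9%. In 15 of 31 (48.4%) both iPGC libraries lay above both PGC libraries, against 39.4% of all genes. In PGCLCs 28 of 31 were above 0, against 66.4%, with a median of 0.72 beside 0.44, and 15 of 31 were separated upwards, against 33.5%, with 6 of 31 at an unadjusted p below 0.05, against 15.7%. Both PGC libraries lay below all 4 libraries of these groups in 12 of 31 (38.7%), against 27.0% of all genes. In each comparison 2 of 31 were separated downwards, against 13.1% in iPGCs and 11.8% in PGCLCs. Less the median of all genes, the median of the 31 was 0.18 in iPGCs and 0.28 in PGCLCs. Without PGC library 1 these were -0.17 and 0.06, so the direction in iPGCs rested on that library. With a pseudocount of 0.1 it was -0.05 in iPGCs.

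The leading separated members in iPGCs were Psmc3ip (2.98 ± 0.81), Psmb9 (listed at 0 in PGCs, limma adjusted p = 0.0782) and Psmd8 (1.90 ± 0.45, adjusted p = 0.0865) above PGCs, and Psmd9 (-1.17 ± 0.73) and Psmc3 (-0.76 ± 0.43) below, beside Psme1. In PGCLCs they were Psmc3ip (3.19 ± 0.81), Psmc5 (1.84 ± 0.51, limma adjusted p = 0.107) and Psma4 (1.74 ± 0.44, adjusted p = 0.0896) above, and Psmg3 (-1.16 ± 0.74) and Psmb4 (-1.03 ± 0.52) below. Psmc3ip passed in both comparisons without PGC library 2 (limma adjusted p = 0.0253 and 0.0199), which left library 1 with 0.589 FPKM to stand for PGCs.

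PGCLCs and iPGCs, made from the same stem cells by different routes, had a median difference near 0 in the constitutive genes. There were 14 positive and 17 negative differences, against 49.6% and 50.1% of all genes, and the median was -0.01, beside -0.003455 over all genes. PGCLC libraries were separated upwards in 5 of 31, against 17.3% of all genes, and downwards in 7 of 31, against 19.6%. The separated members were led by Psmb5 (0.95 ± 0.48), Psma5 (0.88 ± 0.49) and Psme3 (0.86 ± 0.48) higher in PGCLCs, and by Psmb9, listed at 0 in PGCLCs, Psmd8 (-1.32 ± 0.45) and Psmd7 (-0.89 ± 0.47) lower. Psmb9 had a limma adjusted p of 0.783 there, and the other 5 had 1.

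Of 28 other genes of the ubiquitin and proteasome system, 0 passed in any pairwise comparison in limma, where 0.018% to 1.06% of all genes passed. Nfe2l1, the proteasome gene activator named above, was at 48.2 and 43.6 FPKM in PGCs, 25.3 and 24.2 in EGCs, 109 and 98.95 in iPGCs, and 168 and 133 in PGCLCs. No pair of groups overlapped. Its log2 difference was -2.55 ± 0.37 in EGCs against PGCLCs (limma adjusted p = 0.0658), -2.03 ± 0.37 in EGCs against iPGCs (0.208) and 1.69 ± 0.37 in PGCLCs against PGCs (0.0703). Nfe2l2, a related stress factor, was at 6.13 and 7.20 FPKM in PGCs, 19.98 and 23.1 in EGCs, 41.8 and 27.2 in iPGCs, and 47.9 and 26.9 in PGCLCs. Ecpas, a proteasome adaptor, was at 37.3 and 36.3 in PGCs, 15.3 and 8.25 in EGCs, 5.36 and 7.58 in iPGCs, and 51.7 and 15.3 in PGCLCs. The polyubiquitin gene Ubb was at 7.97 and 12.99, 7.96 and 27.3, 35.3 and 45.9, and 60.4 and 40.4 FPKM in the same order. In EGCs 23 of these 28 genes had a lower mean than in iPGCs, and 23 a lower mean than in PGCLCs, with medians of -0.51 and -0.74. Of all tested genes 69.5% and 66.2% had a lower mean in EGCs, with medians of -0.40 and -0.38.

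Of 12 tested genes of interferon signalling and antigen processing, Irf1 passed in EGCs against PGCs and none passed in the other 5 comparisons in limma. Of all tested genes 0.74% passed in EGCs against PGCs, and 0.018% to 1.06% in the others. Irf1, an interferon-induced transcription factor, was at 57.05 and 37.3 FPKM in PGCs, 2.65 and 4.32 in EGCs, 9.15 and 13.6 in iPGCs, and 18.6 and 7.44 in PGCLCs. It fell by 3.42 ± 0.60 on the log2 scale in EGCs (limma adjusted p = 0.0488). Both PGC libraries lay above the 6 others. They were also the only libraries with the myeloid marker Fcer1g, at 21.4 and 4.85 FPKM, whose part in the Irf1 and Psme1 values was not tested. Fcer1g was most of the myeloid and blood marker sum of 5.81 FPKM in PGC library 2, where Ptprc, Cd68 and Pf4 were at 0. The list as a whole had both directions in EGCs against PGCs. Of its 12 tested genes, 5 (41.7%) were separated upwards and 4 (33.3%) downwards. Over all tested genes these shares were 24.1% and 20%. Nlrc5, a regulator of class I genes, was at most 0.304 FPKM in any library. Ifngr1, a receptor chain for interferon gamma, was at 28.4 and 5.11 FPKM in EGCs and at most 1.23 elsewhere.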

How the data were processed

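RNA of 8 libraries was amplified with an Ovation kit and sequenced as 50-base single reads, per the labels' protocols. The deposited values are FPKM per gene, made by the authors with TopHat2 and Cufflinks on GRCm38/mm10, per the submitters' processing notes; the sources used here give no versions and no strand setting. No counts are used, so depth is approximate, and the number of replicates limits the precision. Of repeated entries of a gene identifier the one with the highest mean was kept. Genes with at least 1 FPKM in 2 or more libraries (11083) entered 1 fit over all 8 libraries in limma 3.58.1 (R 4.3.3, trend and robust variance) on the log2 scale after adding 1 FPKM, with Benjamini-Hochberg adjustment over all tested genes and a threshold of 0.05. Differences on this scale understate those of low genes. Positions, types and shared 50-base windows came from GENCODE M21, and promoters from RefSeq GRCm38.p6. A group pair is separated where both libraries of one lie above both of the other. Named in each comparison were the 3 separated members with the largest difference in each direction, and in each class those with the highest and lowest mean and the most and least variation. Members and lists were chosen with earlier results of these data known.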

Additional observations from a re-analysis of the deposited data

How the results depend on the processing

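With 2 libraries a group, calls need large differences, and values near 0 FPKM carry unknown counting error. No member was called in any comparison under another pseudocount, no filter or quantile normalization. Without PGC replicate 2, 1 member (Psmc3ip) was called in iPGCs against PGCs, in PGCLCs against PGCs and among the 4 groups, so these counts ran from 0 to 1 over the libraries left out. The median of the 31 constitutive genes less that of all genes is -0.22 (EGC against PGC), 0.18 (iPGC against PGC), 0.28 (PGCLC against PGC), -0.01 (PGCLC against iPGC), -0.45 (EGC against iPGC) and -0.53 (EGC against PGCLC). With quantile normalization the first 3 were 0.01417, 0.4615 and 0.5084. A pseudocount of 0.1 gave -0.05408 for iPGC and 0.1135 for PGCLC against PGC, and one of 5 gave 0.4077 for iPGC. Without a filter they were 0.4155 (iPGC against PGC), 0.5528 (PGCLC against PGC), -0.6285 (EGC against iPGC) and -0.7731 (EGC against PGCLC). Leaving out 1 library gave -0.3975 to -0.07711 (EGC against PGC), -0.1677 to 0.3143 (iPGC against PGC), 0.06369 to 0.4971 (PGCLC against PGC), -0.17 to 0.3477 (PGCLC against iPGC), -0.6006 to -0.2954 (EGC against iPGC) and -0.797 to -0.3054 (EGC against PGCLC). The cause was not tested. Both EGC differences from the in vitro groups kept their direction throughout. The immunoproteasome share by pair, as a mean of 2 libraries, was 4.149% for Psmb8 in iPGCs (0% and 8.299%). In PGCLCs it was 0% for Psmb8, 0% for Psmb9 and 2.866% for Psmb10 (2.047% and 3.685%). In EGCs it was 5.087% (2.289% and 7.885%), 1.514% (0.6355% and 2.392%) and 18.97% (25.01% and 12.93%), so single libraries moved the Psmb8 and Psmb9 shares by over 1.5 times. In PGCs it was 2.496% and 0%, 0% and 0%, and 8.193% and 0.2796% by library. Replicate numbers did not pair the samples (correlations of deviations of 0.0071, -0.03 and 0.058), and with a replicate block over PGCs, iPGCs and PGCLCs 0 members and 10, 2 and 0 of all genes were called.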

Other observations

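The order of the 31 constitutive genes by level within a library was compared between libraries. Spearman's rho across these genes was 0.683 to 0.902 in the 4 pairs of libraries of the same group (median 0.858) and 0.613 to 0.895 in the 24 pairs from different groups (median 0.781). Over all tested genes the medians were 0.770 and 0.693. Genes of one library share its depth and amplification and are not independent replicates. The 19 constitutive genes with under 5% of their windows shared with any other gene had a median log2 difference of -0.90 in EGCs against iPGCs and -0.76 in EGCs against PGCLCs, beside -0.85 and -0.92 for all 31.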
